A study of Homo sapiens with 8 samples.

Results

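The genes described here are the vascular endothelial growth factor (VEGF) ligands VEGFA, VEGFB, VEGFC and PGF, the receptor tyrosine kinases FLT1, KDR and FLT4, and the neuropilin co-receptors NRP1 and NRP2. They were chosen by symbol, and all 9 members were found among the 27946 genes of the table. Each is represented by its row of highest mean level over the 8 libraries. Members were chosen with earlier results of these data known. Of the 9, 7 passed the filter on low values and were tested among 13790 genes, and KDR and FLT4 did not pass it.

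RNA of EA.hy926 was sequenced in 8 libraries. EA.hy926 is an established human endothelial line that was made by fusing umbilical vein endothelial cells with A549 lung carcinoma cells. There were 2 control libraries, 3 libraries of clones from which the enhancer E2 had been deleted (ΔE2), and 3 libraries of clones without SE12313-b (ΔSE12313-b), another constituent of the same super-enhancer that served as a comparison because it was inactive in a reporter assay. Each clone was grown from a single cell after transfection of Cas9 protein with a pair of guide RNAs, so that a replicate of a deletion is a separate clone, whereas nothing in the labels says that the controls are clones or separate cultures. In a comparison with control, cloning and Cas9 transfection therefore cannot be told apart from the deletion. Both deletions were compared with the same 2 control libraries. All cells carried the EA.hy926 background, and the control RNA may come from cells that had received guides, which the study describes for its proliferation assay and does not state for the RNA. The question was how the expression of the VEGF family differs after each deletion, and between the deletions.

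VEGF ligands are secreted dimers. VEGF-A binds the receptors encoded by FLT1 and KDR, whereas VEGF-B and placental growth factor, the product of PGF, bind FLT1 alone, and VEGF-C acts through FLT4 and, once processed, KDR. KDR transmits most of the mitogenic and migratory signal in blood endothelium, FLT1 binds VEGF-A tightly with weak kinase activity and also exists as a secreted decoy, FLT4 is typical of lymphatic endothelium, and the neuropilins bind ligands and present them to the receptors.

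The guides define the groups, and each had 1 perfect site next to an NGG motif in GRCh37, on chromosome 16. They are given 5′ to 3′ on the strand they match, with the adjoining motif (PAM) in capitals.
E2, minus strand, chr16:77630390-77630412: tgtaccacatcagaaggcttGGG
E2, plus strand, chr16:77627877-77627899: gagttcagactcaactcttgAGG
SE12313-b, minus strand, chr16:77602387-77602409: aaagaagcttccggttgaatTGG
SE12313-b, plus strand, chr16:77604893-77604915: ctattatttctcccgacgtaGGG
Cuts 3 bases from each motif would take out 2502 bp for E2 and 2517 bp for SE12313-b. The study lists slightly smaller sizes for both deletions, and checked them by PCR and Sanger sequencing. The junctions of the clones, which can differ from these sizes, were not analysed here. Of the 9 members 0 lie on chromosome 16.

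The libraries held between 12067557 and 19101153 reads. The controls were nearly as alike as counting error allows (chi-square per degree of freedom of 1.19 over genes), and the clones were not, with values from 4.00 to 22.9 between clones of the same deletion. ΔE2 replicate 2 and ΔSE12313-b replicate 3 stood apart from the other clones of their group, and changes against control that moved by over 1.5 times or changed side of the adjusted p without them are also given without them. Levels are FPKM (reads on a transcript, scaled to its length and to the reads of the library) of 1 transcript per gene, the one with the highest mean. A DEG had a limma p under 0.05 after Benjamini-Hochberg adjustment over all 13790 genes, and a change of at least 2-fold on the scale of log2(FPKM + 0.1). Of the endothelial marker genes 11 of 12 passed the filter on low values, among them CDH5 at 103 FPKM and PECAM1 at 5.98 FPKM in control cells. EMCN passed it with means of 0.352 FPKM in controls, 0.0533 in ΔE2 and 1.11 in ΔSE12313-b, and CLDN5 was at 0 in all 8 libraries. Single markers went both ways. VWF had means of 1.92 FPKM in controls, 0.537 in ΔE2 and 0.515 in ΔSE12313-b, and PECAM1 rose to 13.9 and 26.0 FPKM. As this is bulk RNA, fewer cells that express a gene and less RNA per cell cannot be told apart.

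Of the 7 tested members, VEGFA was downregulated in both deletions, VEGFC was a downregulated DEG in ΔSE12313-b, and NRP1 was the DEG that separated the deletions, being lower in ΔE2. In ΔE2 against control 1 of 7 members was a DEG, where 19.6% of all genes tested were, 8.36% of them lower and 11.2% higher. In ΔSE12313-b against control 2 of 7 were DEGs, against 22.6% of all genes, 7.83% lower and 14.7% higher. Between the deletions it was 1 of 7, against 4.23% of all genes, of which 2.63% were lower in ΔE2 and 1.60% higher. There were 0 upregulated members by this rule in any of the 3 comparisons. By the adjusted p at any fold it was 2 members in ΔE2, 5 in ΔSE12313-b and 3 between the deletions, where 54.1%, 59.4% and 26.0% of all genes passed. The ranges of FPKM in the groups compared did not overlap for 6 members in ΔE2, 6 in ΔSE12313-b and 3 between the deletions, and for 73.5%, 75.3% and 40.8% of all genes. The median change of all genes was not 0, at 0.14 in ΔE2 and 0.27 in ΔSE12313-b on the log2 scale. The share of reads that fell on genes also differed, being smallest in the controls and largest in ΔSE12313-b. With each library centred, 1170 genes were up and 1464 down in ΔE2, in place of 1544 and 1153, and 1201 up and 1570 down in ΔSE12313-b, in place of 2032 and 1080.

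**Figure D1:**
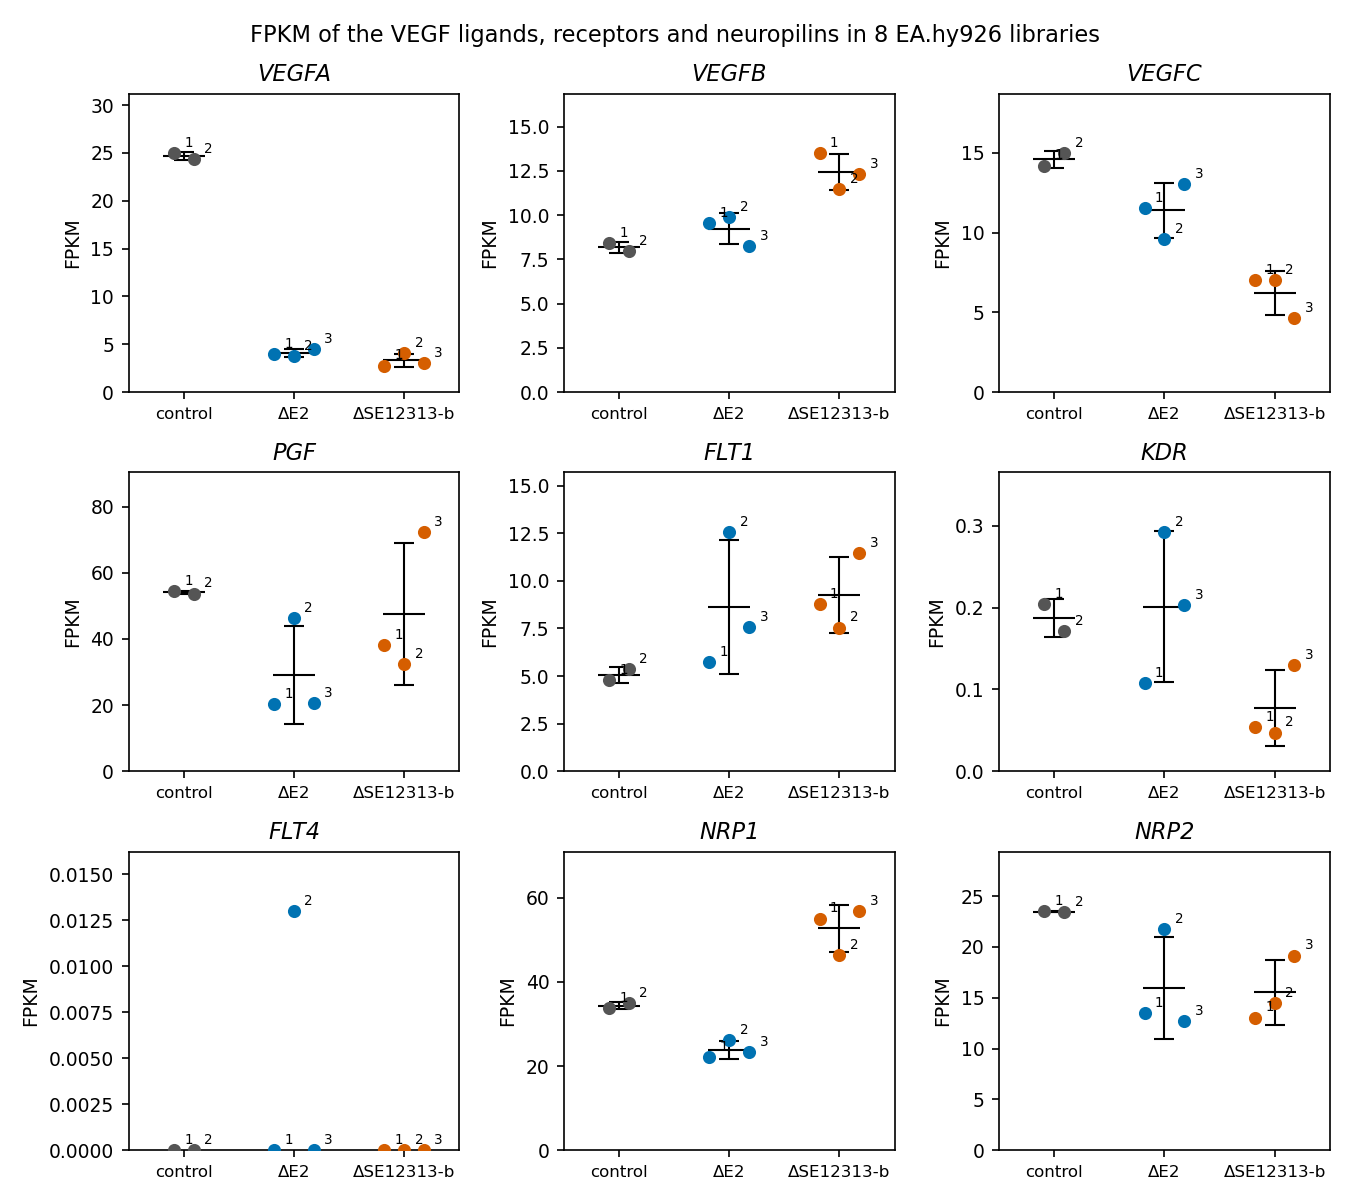
FPKM (y axes, each from 0) of the 9 members in each library, by group (x axes), with points numbered by replicate and black bars for the mean ± SD (2 control libraries, 3 clones per deletion; no mean for FLT4, listed at 0 in 7 of 8 libraries). VEGFA is under 5 FPKM in all 6 clones and above 24 in both controls, NRP1 lies below the controls in ΔE2 and above them in ΔSE12313-b, and for PGF, FLT1 and NRP2 the clones of a deletion spread widely.

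VEGFA, the main mitogen of endothelium, was the ligand that fell furthest. The row of highest mean was NM_001287044 (GRCh37, chr6:43739722-43754223, plus strand), 1 of 20 listed transcripts. It stood at 25.0 and 24.4 FPKM in the controls, at 3.98, 3.79 and 4.51 FPKM in the ΔE2 clones, and at 2.76, 4.12 and 3.07 FPKM in the ΔSE12313-b clones. No clone came near a control, and the clones of both deletions overlapped. The log2 fold change was -2.57 (SE 0.16, n = 3 against 2, limma adjusted p = 1.21e-05) in ΔE2 and -2.88 (SE 0.16, n = 3 against 2, limma adjusted p = 5.40e-06) in ΔSE12313-b. Of the 13790 genes, 226 fell further in ΔE2 and 153 in ΔSE12313-b. The clones of the deletions differed by 0.31 (95% confidence interval -0.03 to 0.65, limma adjusted p = 0.160), ΔE2 being higher. This was 0.19 (adjusted p = 0.391) without ΔSE12313-b replicate 1 and 0.47 (adjusted p = 0.0243) without ΔSE12313-b replicate 2. Across the 20 transcripts, which share most of their exons and so most reads, the log2 ratio of mean FPKM lay between -2.76 and -2.56 for ΔE2, and between -3.03 and -2.86 for ΔSE12313-b. Among tested genes ranked by level, VEGFA moved from percentile 86.3 in control cells to 36.3 in ΔE2 and 30.7 in ΔSE12313-b.

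The summed level of 8 epithelial marker genes moved with the deletions as well, from 361 to 363 FPKM in the controls to between 1084 and 1210 FPKM in ΔE2 and between 811 and 1069 FPKM in ΔSE12313-b. Of the 8, 3 were expressed enough to be tested, and these were keratins of simple epithelia (KRT7, KRT8 and KRT18), whereas CDH1, which encodes E-cadherin, was at 0 in all libraries and EPCAM was under 0.6 FPKM. The leukocyte marker sum lay between 25.0 and 40.7 FPKM in all libraries, with 2 of 6 markers tested and PTPRC at or near 0. Most of this sum was CD68, at 28.9 FPKM in controls. The sum of fibroblast and smooth muscle markers, 1 of 8 tested, was 5.20 to 6.69 FPKM in controls and 0.701 to 2.07 FPKM in the clones. In controls most of it was ACTA2, at 5.59 FPKM. The part of these differences in the result for VEGFA was not tested.

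VEGFC, the ligand of lymphatic growth (NM_005429, chr4:177604685-177713899, minus strand), had an ordered pattern. It was at 14.2 and 15.0 FPKM in the controls, at 11.5, 9.60 and 13.1 FPKM in ΔE2, and at 7.02, 7.01 and 4.63 FPKM in ΔSE12313-b. The 3 groups did not overlap, with ΔSE12313-b lowest. The change was -1.24 on the log2 scale in ΔSE12313-b (SE 0.20, limma adjusted p = 0.00107). In ΔE2 it was -0.36 (SE 0.20, 95% confidence interval -0.83 to 0.10, limma adjusted p = 0.158), which did not pass the test. That value passed the adjusted p, at under 2-fold, with quantile normalization (-0.62, adjusted p = 0.0277), with voom on reads (-0.54, adjusted p = 0.0231), without ΔSE12313-b replicate 3 (-0.36, adjusted p = 0.0467) and without both clones that stood apart (-0.25, adjusted p = 0.0480). The deletions differed directly, by 0.88 (SE 0.18, limma adjusted p = 0.0104), with all 3 ΔE2 clones above all 3 ΔSE12313-b clones. This difference was short of 2-fold, and it reached 1.01 with each library centred and 1.00 with voom on reads. Leaving out the 2 clones that stood apart, VEGFC remained a downregulated DEG in ΔSE12313-b.

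VEGFB, a ligand linked to fatty acid uptake and cardiac vessels (NM_003377, chr11:64002056-64006736, plus strand), went the other way in ΔSE12313-b. Its level was 8.42 and 7.98 FPKM in the controls, 9.56, 9.89 and 8.26 FPKM in ΔE2, and 13.5, 11.5 and 12.3 FPKM in ΔSE12313-b. ΔE2 overlapped the controls and ΔSE12313-b was above both other groups. The log2 fold change in ΔSE12313-b was 0.59 (SE 0.11, limma adjusted p = 0.00209), under 2-fold, and 0.17 in ΔE2 (SE 0.11, limma adjusted p = 0.228), and the deletions differed by -0.42 (SE 0.10, limma adjusted p = 0.0160), ΔE2 lower. These values depended on the scale of the libraries. With each library centred the rise in ΔSE12313-b was 0.30 (adjusted p = 0.0502) and with quantile normalization 0.26 (adjusted p = 0.0878), where the value in ΔE2 was -0.03. The difference between the deletions was then -0.29 on both scales (adjusted p = 0.0740 and 0.0814), and it was also lost without ΔSE12313-b replicate 1 (-0.36, adjusted p = 0.0558).

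PGF, which was the most abundant ligand in control cells (NM_001207012, chr14:75408533-75422467, minus strand), differed most between clones. It had 54.4 and 53.7 FPKM in the controls, 20.4, 46.3 and 20.6 FPKM in ΔE2, and 38.2, 32.5 and 72.3 FPKM in ΔSE12313-b. All ΔE2 clones lay below the controls, and ΔSE12313-b clones lay on both sides of them. ΔE2 replicate 2 held 2.27 times the PGF of the lowest ΔE2 clone and ΔSE12313-b replicate 3 held 2.22 times that of its lowest. The log2 fold change in ΔE2 was -1.01 (SE 0.42, 95% confidence interval -1.99 to -0.03, limma adjusted p = 0.0775) and did not pass the test. Without ΔE2 replicate 2 it was -1.40 (adjusted p = 0.0114), and without ΔSE12313-b replicate 3, which enters only the estimate of spread, it was -1.01 (adjusted p = 0.0410), so that PGF was a DEG in each of these fits. Without both clones that stood apart it was -1.40 (adjusted p = 6.95e-05), and PGF was a DEG as well. In ΔSE12313-b the change was -0.27 (95% confidence interval -1.25 to 0.71, limma adjusted p = 0.602), an interval that holds a fall and a rise. It was -0.62 (adjusted p = 0.196) without ΔSE12313-b replicate 3, and -0.62 (adjusted p = 0.00132), past the adjusted p and under 2-fold, without both clones that stood apart. It was -0.16 without ΔSE12313-b replicate 1 and -0.04 without ΔSE12313-b replicate 2.

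**Figure D2:**
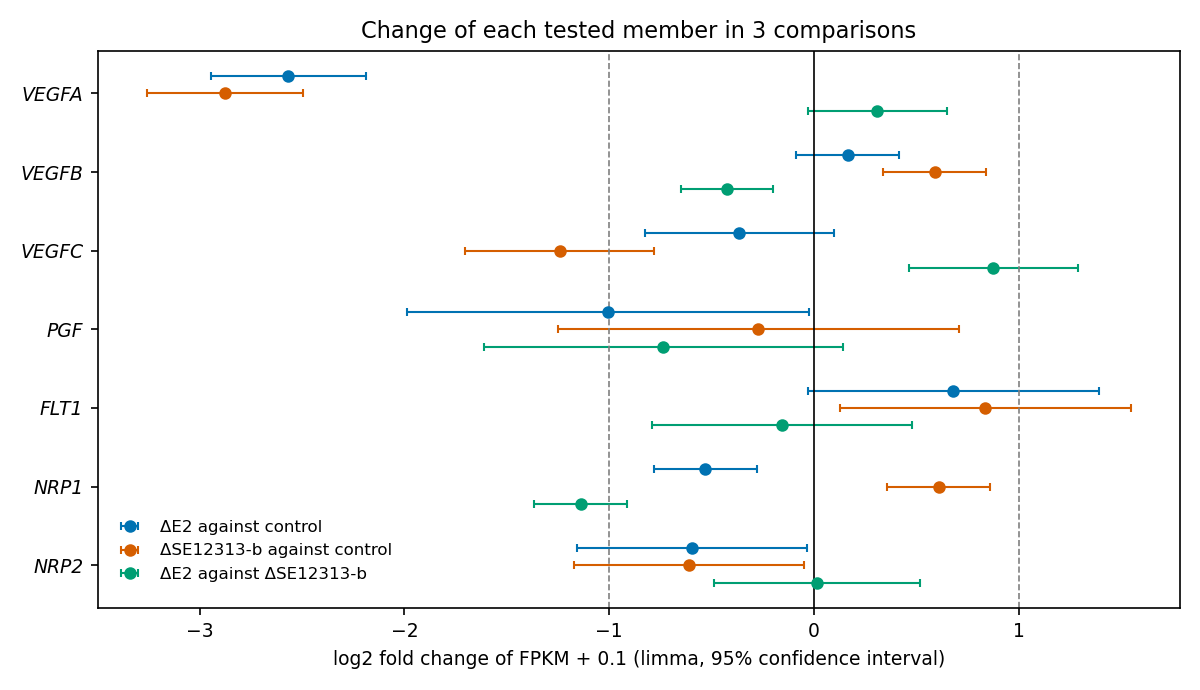
Log2 fold change of FPKM + 0.1 (x axis) of the 7 tested members (y axis) in 3 comparisons, as points with 95% confidence intervals from limma, with dashed lines at a 2-fold change. VEGFA is far below the line of 2-fold in both deletions and near 0 between them, NRP1 lies on opposite sides of 0 in the deletions, and the intervals of PGF, FLT1 and NRP2 are wide.

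The summed level of ligand transcripts lay below both controls in 6 of 6 clones, with another make-up. Summed over VEGFA, VEGFB, VEGFC and PGF, the level was 102.0 and 101.0 FPKM in the controls, 45.4, 69.6 and 46.4 FPKM in ΔE2, and 61.5, 55.1 and 92.3 FPKM in ΔSE12313-b. VEGFA made up 24.5% and 24.1% of this sum in the controls, 8.75%, 5.45% and 9.72% in ΔE2, and 4.50%, 7.47% and 3.33% in ΔSE12313-b. The controls thus had about 2.18 and 2.21 PGF per VEGFA by FPKM. This ratio was 5.13, 12.2 and 4.56 in ΔE2 and 13.8, 7.90 and 23.6 in ΔSE12313-b, above the controls in 6 of 6 clones. VEGFB made up 8.25% and 7.90% of the sum in the controls and between 13.3% and 22.0% in the clones, while the FPKM of VEGFB in ΔE2 overlapped the controls. These shares are a description of the same values that were tested gene by gene, and were given no test.

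**Figure D3:**
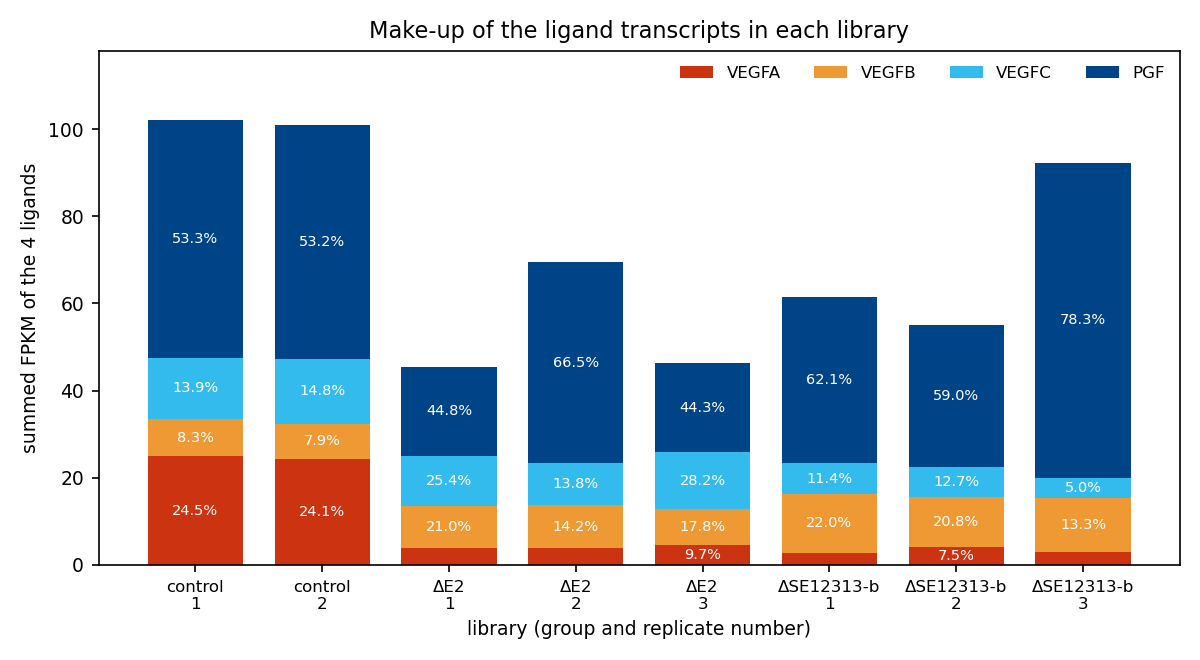
Summed FPKM of the 4 ligands (y axis) in each library (x axis, group and replicate number), stacked by gene, with the share of each ligand in the sum printed in its segment where there is room. VEGFA is 24.5% and 24.1% of the controls' sum and at most 9.72% in a clone, and PGF is the largest segment in every library.

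Of the receptors, FLT1 alone was expressed enough to be tested. KDR, which carries the main VEGF-A signal in primary endothelium (NM_002253, chr4:55944648-55991762, minus strand), gave 15 and 12 reads in the controls, 12, 29 and 16 reads in ΔE2, and 5, 4 and 12 reads in ΔSE12313-b. In FPKM these were 0.204 and 0.171 in the controls, 0.108, 0.292 and 0.203 in ΔE2, and 0.054, 0.047 and 0.130 in ΔSE12313-b. All libraries were thus under 0.3 FPKM, where the same cells held over 100 FPKM of the endothelial cadherin CDH5 in control cells. The pooled level was 0.188 FPKM (exact Poisson 95% interval 0.124 to 0.273) in the controls, 0.197 (0.149 to 0.255) in ΔE2 and 0.0774 (0.0479 to 0.118) in ΔSE12313-b, with intervals that cover counting error only and not the spread of clones. ΔSE12313-b lay below both controls in 3 of 3 clones, and ΔE2 overlapped both other groups. FLT4, the receptor of lymphatic endothelium (NM_001354989, chr5:180034753-180076624, minus strand), had 0 reads in the controls, 1 read in ΔE2 and 0 reads in ΔSE12313-b. At this depth 3 reads in the control group would be 0.0279 FPKM, and the exact Poisson 95% upper limit for its 0 reads was 0.0343 FPKM. A level in the controls under that limit cannot be told apart from 0.

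FLT1, the receptor of VEGF-A, VEGF-B and PGF, is represented by NM_001160031 (chr13:28973181-29069265, minus strand), a short transcript of 1897 bases that holds exons 1 to 11 of 30. Its level was 4.78 and 5.37 FPKM in the controls, 5.74, 12.6 and 7.59 FPKM in ΔE2, and 8.78, 7.54 and 11.5 FPKM in ΔSE12313-b. All 6 clones lay above both controls, by a small margin in ΔE2 replicate 1. The log2 fold change was 0.68 in ΔE2 (SE 0.31, limma adjusted p = 0.0943), not past the test, and 0.84 in ΔSE12313-b (SE 0.31, limma adjusted p = 0.0452), past the test and under 2-fold. In ΔE2 the value was 0.38 (adjusted p = 0.182) without ΔE2 replicate 2 and 0.93 (adjusted p = 0.0289) without ΔE2 replicate 1. Without both clones that stood apart it was 0.38 (adjusted p = 0.0841) in ΔE2. The call in ΔSE12313-b was lost with each library centred (0.55, adjusted p = 0.159) and with no filter on low values (0.84, adjusted p = 0.0621). It was also lost without ΔSE12313-b replicate 3 (0.67, adjusted p = 0.112), without ΔSE12313-b replicate 1 (0.86, adjusted p = 0.0833), without ΔE2 replicate 3, which enters only the estimate of spread (0.84, adjusted p = 0.0653), and without the first or the second control (0.75 and 0.92, adjusted p = 0.172 and 0.107). The adjusted p was passed, at under 2-fold, without both clones that stood apart (0.67, adjusted p = 0.0107). The same held with only both groups in the fit (0.84, adjusted p = 0.0157), and without ΔE2 replicate 1 or 2 (0.84, adjusted p = 0.0257 and 0.00902).

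These values depended on which FLT1 transcript was taken. The short row was the highest in the controls too, at 5.07 FPKM against 4.97 FPKM for NM_002019. In ΔE2 it was 8.63 against 5.61 FPKM, and in ΔSE12313-b 9.27 against 5.87 FPKM. Most of its lead in the choice by highest mean thus came from the clones. For the longest one, NM_002019 (chr13:28874483-29069265, 7091 bases, 30 exons), which encodes the membrane receptor, the levels were 4.73 and 5.21 FPKM in the controls, 3.82, 8.24 and 4.76 FPKM in ΔE2, and 5.09, 4.43 and 8.10 FPKM in ΔSE12313-b. These groups overlapped, and with the longest transcript of every gene the log2 fold change of FLT1 was 0.10 (adjusted p = 0.827) in ΔE2 and 0.19 (adjusted p = 0.656) in ΔSE12313-b. The reads of NM_002019 beyond those of the short row, on 5194 bases, gave the level of the rest of the gene, where 1836 of the 1897 bases of the short row lie in exons of the long one. It was 4.93 ± 0.309 FPKM in the controls, 4.50 ± 1.89 FPKM in ΔE2 and 4.63 ± 1.95 FPKM in ΔSE12313-b (SD, n = 2, 3 and 3).

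As a ratio within each library, the density of the rest over that of the short row was 0.988 and 0.959 in the controls. It was 0.543, 0.530 and 0.492 in ΔE2, and 0.427, 0.436 and 0.599 in ΔSE12313-b. The ratio was lower in 6 of 6 clones than in either control, including the clones that stood apart, and the groups of deletions overlapped. An exact two-sided permutation test gave p = 0.2 for each deletion, the smallest that 3 against 2 libraries allow. The reads behind these ratios were 115 and 123 on the short row and 311 and 323 on the rest in the controls, and at least 196 and 253 in the clones.

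FLT1 is known to give a soluble receptor when transcription ends in intron 13, past the donor site of exon 13. That site is shown because the soluble row NM_001159920 reads through it, with 15 exonic and 15 intronic bases and the GT of the donor in capitals.
FLT1 exon 13 donor, GRCh37, chr13:28963918-28963947, minus strand: aaattacaatcagagGTgagcactgcaaca
The soluble row (chr13:28959688-29069265, 6484 bases) was at 3.33 and 3.34 FPKM in the controls, at 3.55, 8.03 and 4.47 FPKM in ΔE2, and at 5.62, 4.69 and 7.83 FPKM in ΔSE12313-b. It too was higher than the controls in 6 of 6 clones. The part of it beyond the short row, which is mostly intron 13, had 0.518 ± 0.0762 of the density of the short row in the controls, 0.456 ± 0.0349 in ΔE2 and 0.502 ± 0.0445 in ΔSE12313-b, and these overlapped between controls and both deletions (exact permutation p = 0.4 and 1.0). The FLT1 rows share exons and reads, and reads of unspliced RNA cannot be told apart from those of forms that end in an intron, so the values do not give the amount of each form.

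NRP1 has the same kind of short, soluble form, and served for comparison. The ratio of the rest of NM_003873 over NM_001024628 was 0.843 and 0.787 in the controls, 0.839, 0.947 and 0.837 in ΔE2, and 0.854, 0.927 and 0.899 in ΔSE12313-b. Here the ratio lay above both controls in 3 of 3 ΔSE12313-b clones (exact two-sided permutation p = 0.2, the smallest possible) and overlapped the controls in ΔE2 (exact two-sided permutation p = 0.6).

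**Figure D4:**
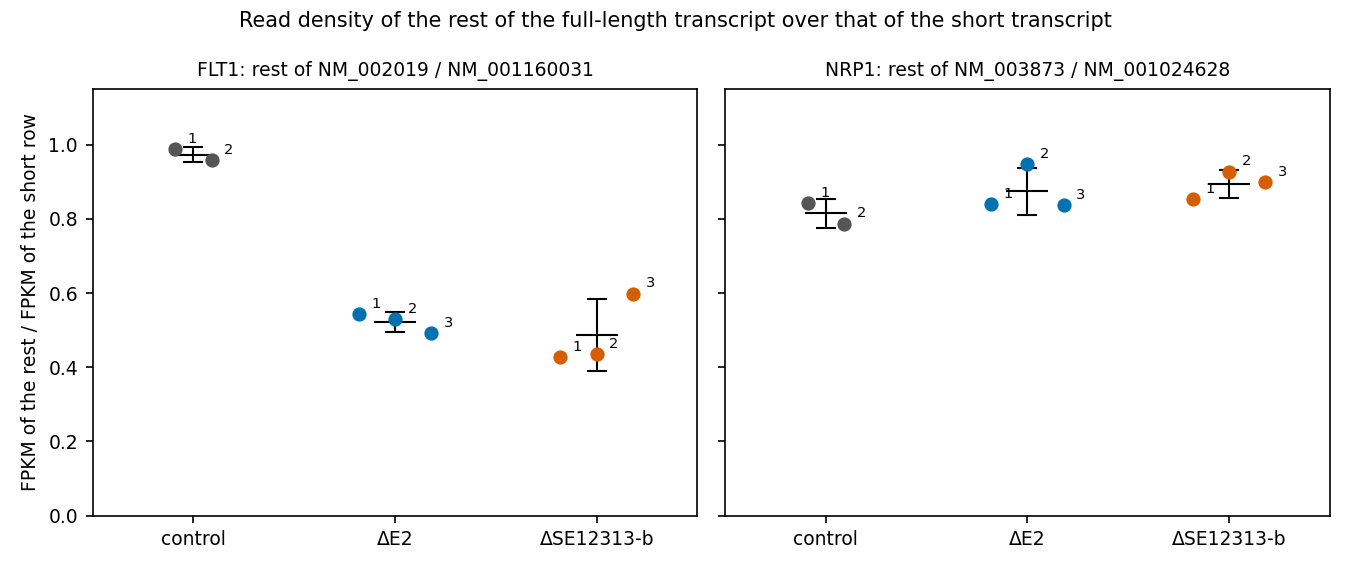
Read density of the rest of the full-length transcript divided by that of the short transcript (y axes, from 0), for FLT1 (left) and NRP1 (right), by group (x axes), with points numbered by replicate and black bars for mean ± SD. For FLT1 the controls are at 0.988 and 0.959 and the 6 clones between 0.427 and 0.599, whereas for NRP1 all libraries lie between 0.787 and 0.947.

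NRP1, co-receptor of VEGF-A and of class 3 semaphorins (NM_001024628, chr10:33486547-33623833, minus strand), changed in opposite directions. It was at 33.8 and 35.0 FPKM in the controls, at 22.2, 26.1 and 23.2 FPKM in ΔE2, and at 55.1, 46.3 and 56.8 FPKM in ΔSE12313-b. The 3 groups did not overlap, as ΔE2 clones were all below and ΔSE12313-b clones all above the controls. Its log2 fold change was -0.53 in ΔE2 (SE 0.11, limma adjusted p = 0.00439) and 0.61 in ΔSE12313-b (SE 0.11, limma adjusted p = 0.00184), both under 2-fold. Between the deletions it was -1.14 (SE 0.10, limma adjusted p = 0.000523), past 2-fold. The rise in ΔSE12313-b was smaller on other scales, at 0.32 with each library centred (adjusted p = 0.0314) and 0.13 with quantile normalization (adjusted p = 0.268), where the difference between the deletions was -1.01 and -0.98. Over the 7 listed transcripts of NRP1 the log2 ratio of means lay between -0.53 and -0.47 for ΔE2, and between 0.62 and 0.69 for ΔSE12313-b.

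The genes of the chromosome arm of NRP1 were, by their median, also higher in ΔSE12313-b. The median log2 change of 90 expressed genes on chromosome arm 10p was 0.80 in ΔSE12313-b, which is 0.45 above the median of genes on all arms, and in single clones it was 0.47 to 0.49 above. In ΔE2 the same genes differed from the rest by -0.01. NRP1 thus differed from the median of its own arm by -0.19 in ΔSE12313-b and by -0.71 in ΔE2. The number of copies of the arm was not measured, and its part in the change of NRP1 was not tested. For VEGFB the arm 11q differed from the rest by -0.27 in ΔSE12313-b, so that VEGFB was 0.51 above its arm. The arm of PGF, 14q, differed from the rest by 0.14 in ΔSE12313-b, and by -0.06 to 0.30 in single clones. In ΔE2 the arm 14q differed by 0.03. The part of this arm in the spread of PGF between clones was not tested. VEGFC on 4q differed from its arm by -1.37 in ΔSE12313-b, and VEGFA on 6p differed from its arm by -2.84 in ΔE2 and -3.30 in ΔSE12313-b.

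**Figure D5:**
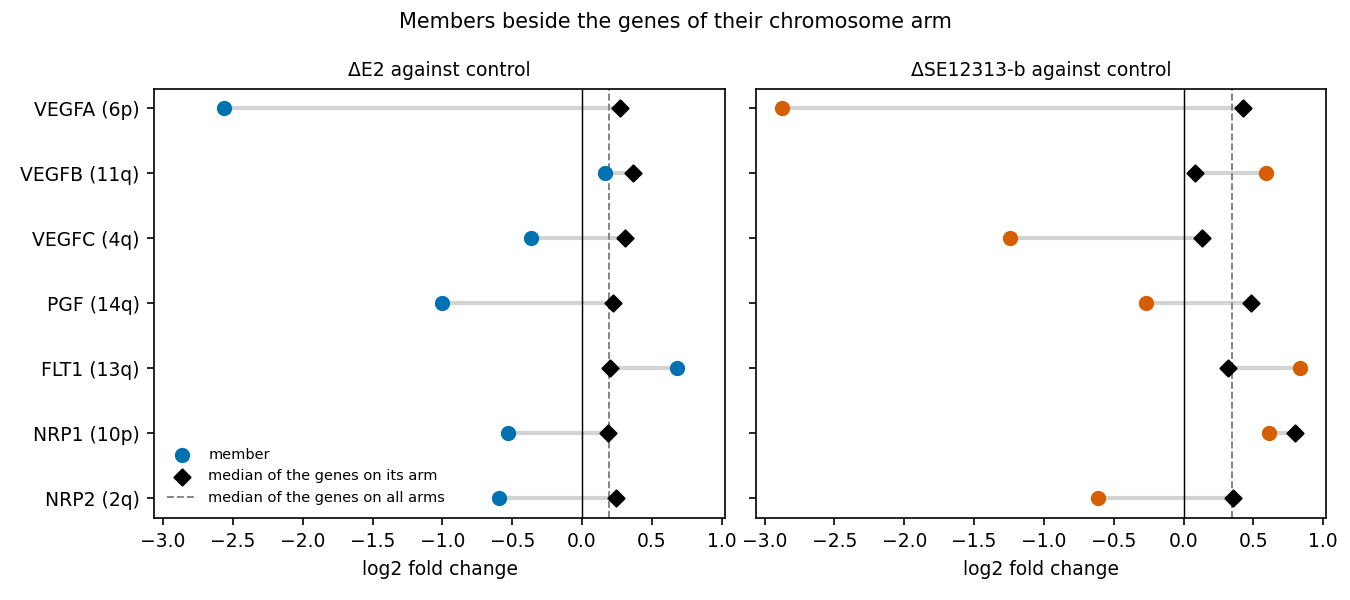
Log2 fold change (x axes) of the 7 tested members (coloured points) and median of the expressed genes on the same chromosome arm (black diamonds), in ΔE2 (left) and ΔSE12313-b (right), with a dashed line at the median of genes on all arms. NRP1 lies beside its arm in ΔSE12313-b (0.61 and 0.80) and away from it in ΔE2 (-0.53 and 0.18), while VEGFA is far from its arm in both.

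NRP2, the co-receptor of VEGF-C (NM_201264, chr2:206547224-206608422, plus strand), was at 23.5 and 23.4 FPKM in the controls, at 13.5, 21.7 and 12.7 FPKM in ΔE2, and at 13.0, 14.5 and 19.1 FPKM in ΔSE12313-b. All 6 clones were below both controls. On the log2 scale the change was -0.60 in ΔE2 (SE 0.24, limma adjusted p = 0.0703) and -0.61 in ΔSE12313-b (SE 0.24, limma adjusted p = 0.0602), and neither passed the test. With each library centred both did, at -0.75 (adjusted p = 0.0327) and -0.90 (adjusted p = 0.0156), and with quantile normalization NRP2 was a downregulated DEG in ΔSE12313-b (-1.04, adjusted p = 0.00818). Both also passed without ΔE2 replicate 2 and ΔSE12313-b replicate 3, at -0.84 (adjusted p = 0.000312) and -0.77 (adjusted p = 0.000381). The ratio of NRP1 to NRP2 was 1.44 and 1.49 in the controls, 1.64, 1.20 and 1.83 in ΔE2, and 4.23, 3.20 and 2.97 in ΔSE12313-b. The neuropilin balance by FPKM was thus shifted to NRP1 in 3 of 3 ΔSE12313-b clones, and ΔE2 clones lay on both sides of the controls.

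In control cells the order of levels was PGF, NRP1, VEGFA, NRP2, VEGFC, VEGFB, FLT1, KDR and FLT4. VEGFA at 24.7 ± 0.441 FPKM and NRP2 at 23.5 ± 0.0474 FPKM (SD, n = 2) were neighbours whose library values did not overlap by a narrow margin. In ΔE2 VEGFA was 7th at 4.09 ± 0.372 FPKM, below FLT1 at 8.63 ± 3.53 FPKM, VEGFB at 9.24 ± 0.860 FPKM and VEGFC at 11.4 ± 1.73 FPKM (SD, n = 3), and these last 3 overlapped. PGF at 29.1 ± 14.9 FPKM and NRP1 at 23.8 ± 2.04 FPKM overlapped as well. In ΔSE12313-b the order began with NRP1 at 52.7 ± 5.64 FPKM and PGF at 47.7 ± 21.5 FPKM, which overlapped, and ended, among tested members, with VEGFC at 6.22 ± 1.38 FPKM and VEGFA at 3.32 ± 0.709 FPKM (SD, n = 3), which did not.

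Members differed in how they followed the clones. In both deletions the clone that stood apart (ΔE2 replicate 2, ΔSE12313-b replicate 3) had the highest PGF, FLT1, NRP1 and NRP2 of its group and the lowest VEGFC. The coefficient of variation between clones was 51.3% and 45.2% for PGF, against 9.09% and 21.4% for VEGFA. The summed level of the 12 endothelial markers was also highest in these clones, at 760 and 729 FPKM, where other clones had 518 to 612 FPKM and controls 474 to 476 FPKM. ENG, EGFL7 and CDH5 were the largest parts of this sum in every library. The part of this difference between clones in the values of PGF, FLT1 and NRP2 was not tested.

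Across the 8 libraries, the genes whose log2 level followed each member most closely were named as a description. The points share 3 groups, so a gene that differs between groups can correlate with a member through the groups alone. VEGFA was nearest to SLC25A25-AS1 (r = 0.995), EML2 and GOLGA8B, of which SLC25A25-AS1 had group means of 4.61 FPKM in controls, 0.492 FPKM in ΔE2 and 0.302 FPKM in ΔSE12313-b. For VEGFC they included ADAMTS6 (r = 0.996) and ARHGEF19, and ADAMTS6 had group means of 5.05 FPKM in controls, 3.89 FPKM in ΔE2 and 2.28 FPKM in ΔSE12313-b. PGF was nearest to BCL10 (r = 0.988), WWTR1, which encodes the transcriptional coactivator TAZ, and BMP1. For NRP1 they included PIGS (r = 0.996) and HAGH. For VEGFB these were ITM2C (r = 0.983), SEMA4F and MYLK2, for FLT1 CTSS (r = 0.989), LIMS1 and GALNT1, and for NRP2 DEPP1 (r = 0.983), ARHGEF17 and TBC1D17.

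The other genes of the pathway were taken from lists of textbook function. The lists were chosen with earlier results of these data known, so that their counts are a description. Of 26 tested genes known to be induced by VEGF-A in endothelial cells, 0 were upregulated and 8 were downregulated DEGs in each deletion, 4 of them in both, where 8.36% and 7.83% of all genes tested were downregulated and 11.2% and 14.7% upregulated, and the median over the list, on the log2 scale, was -0.61 for ΔE2 and -0.63 for ΔSE12313-b. The medians of all genes tested were 0.14 and 0.27. The 4 shared genes were STC1, NR4A1, DUSP1 and HLX. STC1, which encodes the secreted glycoprotein stanniocalcin-1, was at 298 ± 4.26 FPKM in controls, 5.94 ± 1.56 FPKM in ΔE2 and 13.6 ± 7.82 FPKM in ΔSE12313-b (SD, n = 2, 3 and 3), with log2 changes of -5.66 and -4.59 (limma adjusted p = 1.84e-05 and 4.22e-05). The nuclear receptor NR4A1 changed by -2.25 and -1.68 on the log2 scale, from 2.74 ± 0.121 FPKM (limma adjusted p = 8.12e-05 and 0.000276). DUSP1, a phosphatase of MAP kinases, changed by -1.43 and -1.90 from 44.6 ± 1.26 FPKM (limma adjusted p = 0.000866 and 0.000162), and the homeobox gene HLX by -1.22 and -1.05 from 1.97 ± 0.156 FPKM (limma adjusted p = 0.00324 and 0.00565). These genes respond to many other stimuli, and their share in DEGs was not tested as a set.

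Of 56 adaptors and kinases downstream of the receptors, 3 were upregulated and 2 downregulated in ΔE2, and 5 and 1 in ΔSE12313-b, with medians of 0.23 and 0.50. Both upregulated counts are smaller shares of the list than the 11.2% and 14.7% of all genes. In both deletions HRAS, CAV1 and HSPB1 were up and SH2D2A was down. SH2D2A, which encodes the adaptor TSAd that binds phosphorylated KDR, went from 27.4 ± 2.005 FPKM in controls to 5.84 ± 0.942 FPKM in ΔE2 and 7.64 ± 0.321 FPKM in ΔSE12313-b (log2 changes of -2.22 and -1.83, limma adjusted p = 8.99e-06 and 2.01e-05). CAV1, the main protein of caveolae, went from 120 ± 1.85 FPKM to 431 ± 122 and 280 ± 59.3 FPKM (1.81 and 1.20, limma adjusted p = 0.000465 and 0.00304). The small GTPase HRAS rose by 1.51 and 1.70 (limma adjusted p = 7.99e-06 and 3.57e-06), and HSPB1, a heat shock protein phosphorylated after VEGF-A, by 1.16 and 1.77 (limma adjusted p = 0.00395 and 0.000387).

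Of 17 tested receptor partners and phosphatases, 2 were upregulated in each deletion and 0 downregulated, and PTPRB was up in both, with the same 11.2% and 14.7% upregulated among all genes. PTPRB encodes VE-PTP, the endothelial receptor phosphatase that acts on VE-cadherin and KDR complexes, and rose from 1.70 ± 0.148 FPKM in controls to 5.95 ± 0.295 FPKM in ΔE2 and 5.51 ± 0.559 FPKM in ΔSE12313-b (log2 changes of 1.75 and 1.64, limma adjusted p = 1.71e-05 and 1.89e-05). Among 5 tested genes of other ligands and ligand processing, 1 was upregulated in ΔE2 and 0 in ΔSE12313-b. VEGFD, a lymphatic ligand in that list, was under the filter, with 1 read in the controls, 9 reads in ΔE2 and 3 reads in ΔSE12313-b. Of 16 tested genes that act on VEGFA transcription or its mRNA, 1 was up and 2 were down in ΔE2, and 1 and 1 in ΔSE12313-b. The lists are short, and 19.6% and 22.6% of all genes were DEGs. In both deletions HNRNPL, an RNA-binding protein of the VEGFA mRNA, rose by 1.16 and 1.24 (limma adjusted p = 8.34e-06 and 4.82e-06), and ATF4, a transcription factor of the stress response that can induce VEGFA, changed by -1.42 and -1.56 (limma adjusted p = 2.05e-05 and 1.03e-05). The mean of ATF4 was 245 ± 3.19 FPKM in controls, 91.7 ± 7.84 FPKM in ΔE2 and 83.3 ± 7.70 FPKM in ΔSE12313-b (SD, n = 2, 3 and 3).

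Promoter sequences from RefSeq (GRCh38.p14, 250 bases before to 50 after the start site) were matched for 6 of the 9 members, namely VEGFB, VEGFC, PGF, FLT1, KDR and NRP2. They were searched on both strands for the core of the hypoxia response element, ACGTG, for the GC box GGGCGG, and for the cyclic AMP response element TGACGTCA, which does not overlap the other motifs in its letters. The GC box was found in all 6, between 2 matches and 9, where 45.0% of 35116 promoters held it. ACGTG was found in 0 of the 6, where 21.4% of promoters held it. VEGFA, NRP1 and FLT4 had no promoter sequence to search, and sites outside the window were not searched for any member. TGACGTCA was found in FLT1 only, where 1.85% of promoters held it, and its window is shown as FLT1 was the member whose short transcript was higher in all clones. The capitals mark the motif, which starts 81 bases before the start site.
FLT1 promoter, GRCh38.p14, chr13:28495191-28495220, minus strand: gggggacccctTGACGTCAccagaaggagg
A match in these letters is a description and was not tested for binding.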

How the data were processed

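The authors prepared strand-specific libraries from rRNA-depleted RNA, trimmed reads with Trim Galore 0.4.4, mapped them to GRCh37 with STAR 2.5.4b and deposited 1 table of FPKM per RefSeq transcript. The tool, RefSeq release and strand handling behind this table are not given in the sources used here, so that overlapping or antisense transcripts may share reads. The authors' own DEGs came from other counts, not used here.

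Deposited FPKM times transcript length gave whole reads for 100% of values checked (within 0.1 read). These served for depth, low genes and 1 alternative. Libraries held 12067557 to 19101153 reads. Of these, 8151511 of 12696175 and 7802366 of 12067557 fell on genes in the controls. In ΔE2 it was 13374162 of 19101153, 12223119 of 17124023 and 9981638 of 13616467. In ΔSE12313-b it was 12588429 of 16085523, 11147130 of 14814166 and 12463685 of 15890258. The share was smallest in the controls and largest in ΔSE12313-b. FPKM was scaled to all reads of a library. The part of this share in the changes against control was not tested. Of the 65572 transcripts listed, 1 per gene was used, that of highest mean FPKM (27946 genes), and the 13790 genes with at least 0.5 FPKM in at least 2 libraries entered limma 3.58.1 (R 4.3.3) as log2(FPKM + 0.1), with 3 groups in the model, a variance trend, two-sided p and Benjamini-Hochberg adjustment over all of them. The pseudocount understates changes of low genes. The steps were also run on simulated data with the same spread in all groups. The controls here were far more alike than the clones, so that run does not show how the steps perform on these data. Chromosome arms, from the bands in the table, used protein-coding genes with a mean of at least 1 FPKM, members included.

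The named genes are all members, up to 4 genes per list and direction that were DEGs the same way in both deletions, by mean change, and the 3 genes with the highest Pearson r per member, some of which are not reported here. Members and lists were chosen with earlier results of these data known. Alternatives were pseudocounts of 0.01 and 1, filters, scaling, the longest transcript, the variance trend, groups in the fit, thresholds, voom on reads, a replicate block and each library left out. Leaving out ΔE2 replicate 2 and ΔSE12313-b replicate 3 together was added after seeing the data. Nothing says that the controls are separate cultures, so p-values measure the spread between these samples.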

Additional observations from a re-analysis of the deposited data

Results flagged for a closer look

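The changes of both deletions against the same controls differed from each other by the direct test in 3 of the 7 tested members. NRP1 differed by -1.14 on the log2 scale (ΔE2 minus ΔSE12313-b, limma adjusted p = 0.000523), with all 3 ΔE2 clones under and all 3 ΔSE12313-b clones over the controls. The median of the genes on 10p, the arm of NRP1, was 0.18 in ΔE2 and 0.80 in ΔSE12313-b. Against that median NRP1 was at -0.71 in ΔE2 and -0.19 in ΔSE12313-b. VEGFC differed by 0.88 (limma adjusted p = 0.0104), with ΔSE12313-b the lower. VEGFB differed by -0.42 (limma adjusted p = 0.0160), with ΔSE12313-b the higher. Over all genes tested 26.0% passed the same adjusted p between the deletions. Groups of 2 and 3 libraries are too small for a test of single libraries that lie apart.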

How the results depend on the processing

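Over 22 alternatives, 441 of 462 values of the 21 member fold changes kept their direction and their side of the call, 13 became a DEG, 1 was lost and 7 reversed. Some of the 462 could not reverse, as other thresholds, or a library left out of the group not compared, leave the fold change as it was. Moves across the adjusted p at under 2-fold are not counted here. PGF joined VEGFA as a downregulated gene of ΔE2, giving 2 members, with quantile normalization, voom on reads, and without ΔE2 replicate 2 and ΔSE12313-b replicate 3 together, and the counts with 1 library left out ran from 1 to 2. With quantile normalization NRP2 joined VEGFA and VEGFC as lower in ΔSE12313-b, giving 3 members. At 1.5-fold 3 members were higher in ΔSE12313-b (VEGFB, FLT1, NRP1) and 1 was higher in ΔE2 than in ΔSE12313-b (VEGFC), as was VEGFC (1 member) with libraries centred and with voom. The count of members lower in ΔE2 than in ΔSE12313-b was 0 with quantile normalization, where NRP1 was at -0.98, and ran from 1 to 2 with 1 library left out, PGF joining at -1.13 without ΔE2 replicate 2. The log2 fold change of VEGFB in ΔE2 turned to -0.0326 with quantile normalization. Between the deletions, leaving out 1 library moved FLT1 from -0.46 to 0.10 and NRP2 from -0.23 to 0.17, and NRP2 was at -0.07 without both clones that stood apart. Without these 2 clones the members were 2 lower in ΔSE12313-b and 1 lower in ΔE2 than in ΔSE12313-b, as with them. With a control left out, the other is assumed to vary like the clones. The causes were not tested. With quantile normalization 1309 genes were up and 1385 down in ΔE2, and 1400 and 1398 in ΔSE12313-b. The labels number the replicates alike in the groups, but the deviations of same-numbered libraries correlated between -0.08 and 0.107, so the numbers were not taken as pairs. With the replicate block VEGFA was at -2.58 and -2.89, and the DEGs among members were 1 lower in ΔE2, 2 lower in ΔSE12313-b and 1 lower between the deletions, as without it. By adjusted p alone, FLT1 in ΔSE12313-b did not pass with the block (0.0879). At these depths KDR and FLT4 were too low to test.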
